A study of Mus musculus with 11 samples.

Results

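Gene regions of the nuclear interior whose lamin B1 score was higher after oligodendrocyte differentiation were described. A region was taken when it lay on an autosome, scored below 0 in all 6 lamin B1 libraries, had a mean score over 0.5 higher in the 3 libraries of the differentiating condition than in the 3 of the proliferating condition, and had its lowest differentiating score above its highest proliferating score. This rule found 802 of the 21534 gene regions of the deposited table (3.72%), and 5.46% of the 14686 autosomal regions below 0 in all 6 libraries. The 14686 are called interior regions here and the 802 rising regions, names that stand only for the rule. The regions were thus chosen by the 6 library scores that are described, so the values of the 802 regions against the proliferating condition are a description and are given with no test.

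The cells were oligodendrocyte precursor cells (OPCs) from the cortex of C57BL/6 mice at postnatal day 7, and all samples are labelled wild type (WT). Lentiviral vectors delivered Dam-LMNB1, the bacterial adenine methylase Dam tied to lamin B1, or untethered Dam, for 1 day. The cells then spent 72 hours in OPC proliferation medium (PF) or in oligodendrocyte (OL) differentiating medium (T3). There were 3 PF Dam-LMNB1 libraries (8, 9 and 10), 2 PF Dam libraries (2 and 4), 3 T3 Dam-LMNB1 libraries (18, 19 and 20) and 3 T3 Dam libraries (12, 13 and 14), 11 in all. The Dam libraries enter as the pooled denominator of their own condition, so what Dam-LMNB1 and Dam each contributed to a difference between T3 and PF cannot be told apart. Both media groups carried the same vectors, the lamin B1 fusion was expressed from a vector and not from its own gene, and whether each library stands for its own culture or animal is not stated in the labels. The identity of the cells cannot be checked with these data, which hold no RNA. Read depth is unknown.

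Lamin B1 is a filament protein of the nuclear lamina, the meshwork under the inner nuclear membrane. Chromatin at the lamina is mostly gene-poor, late-replicating and silent, whereas gene-dense and active chromatin lies mainly inside the nucleus. In DamID, DNA that comes near the tethered Dam gains methyl groups on the adenine of GATC, and the score of a region compares this with the mark left by free Dam. A score above 0 is taken to mean that the lamin B1 fusion left more methylation than free Dam did, and a score below 0 that it left less. A higher score that is still below 0, as in every rising region, is therefore less depletion of the lamina mark and not a place at the lamina. OPCs divide in response to growth factors, and thyroid hormone is known to drive their exit from the cell cycle and their differentiation into myelinating cells.

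Each score belongs to a whole gene with its flanks, about 10000 bp upstream and 2000 bp downstream, and neighbouring regions can share DNA. To show what DNA such a region holds, 250 bases upstream of the annotated start are printed for 3 rising genes, taken from RefSeq (GRCm38.p6, the mm10 assembly). They are Trim24 (chr6:37870561-37870810, plus strand), which had the largest difference of all rising regions, the cell division gene Ect2 (chr3:27153855-27154104, minus strand) and the OPC gene Lhfpl3 (chr5:22745804-22746053, plus strand). Capitals mark GATC, the site Dam methylates, and CCAAT or its reverse complement ATTGG, a box found in many cell cycle promoters.
Trim24: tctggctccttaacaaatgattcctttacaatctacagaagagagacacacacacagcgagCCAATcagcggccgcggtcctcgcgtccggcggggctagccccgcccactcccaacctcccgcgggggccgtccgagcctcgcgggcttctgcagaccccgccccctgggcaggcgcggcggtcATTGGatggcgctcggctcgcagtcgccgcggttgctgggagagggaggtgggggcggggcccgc
Ect2: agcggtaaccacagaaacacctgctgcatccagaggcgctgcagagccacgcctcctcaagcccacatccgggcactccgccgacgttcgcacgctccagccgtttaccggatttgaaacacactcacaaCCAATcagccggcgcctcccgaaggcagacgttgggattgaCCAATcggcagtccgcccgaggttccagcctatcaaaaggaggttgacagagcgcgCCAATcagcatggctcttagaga
Lhfpl3: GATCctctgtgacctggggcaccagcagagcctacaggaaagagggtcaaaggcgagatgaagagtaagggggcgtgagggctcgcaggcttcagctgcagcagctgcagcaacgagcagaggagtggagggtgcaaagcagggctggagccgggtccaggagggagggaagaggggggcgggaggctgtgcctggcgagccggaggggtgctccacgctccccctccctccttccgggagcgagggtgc
The Trim24 window held 2 CCAAT boxes on the strands together, the Ect2 window held 3 and the Lhfpl3 window none. GATC was present 1 time in the Lhfpl3 window and in neither of the other printed windows. In windows of the same length that are not printed, CCAAT occurred 1 time at Hoxd1. It occurred 0 times at Cep55, a cell division gene like Ect2, and 0 times at Abhd13. Over the 14469 autosomal promoters with a sequence, 35.4% held CCAAT in the same length on either strand and 39.7% held GATC. Only 532 of the 802 rising regions had a promoter in the RefSeq table, fewer than the share such a check needs, so a comparison of base composition or motifs between rising and other promoters is void. A match is a run of letters and says nothing of a protein bound there.

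The rising regions also held 59 microRNA genes, of which 53 had a mature sequence in RefSeq, 87 sequences in all with 86 different seeds. The seed is the stretch from base 2 to base 8 that pairs with target messages, and it is in capitals here. The mature sequences of the 4 with the largest difference are shown (the 3p arm where there are 2), followed by the pair of genes that share a seed, GGGGAGG.
mmu-miR-1983: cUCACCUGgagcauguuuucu
mmu-miR-6898-3p: aAGUCUCUuuguaccuucucu
mmu-miR-697: aACAUCCUgguccuguggaga
mmu-miR-1963: uGGGACGAgaucaugaggccuuc
mmu-miR-7030-5p: uGGGGAGGuggcugugcuaguc
mmu-miR-7076-5p: aGGGGAGGugguauggucuca
No other seed was found in 2 of these genes, counting only identical seeds. Of the 685 interior microRNA regions 8.61% were rising, with 25 after scaling and 53 without T3 library 18. The share was 5.46% over all interior regions. It was 8.7% over interior regions under 14 kb without tRNA regions. A microRNA gene is short, so its window is narrow, and the class under 14 kb itself contains microRNA regions. The 8.61% and the 8.7% are thus not separate shares, and the part of width was not tested. A score here is that of a window around the microRNA gene and not of the mature RNA, and 12 of the 59 windows overlapped a rising protein-coding region.

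The libraries of a condition were alike except for T3 library 18. Its SD over all regions was 1.46, against 1.53 to 1.54 in the other T3 libraries and 1.57 to 1.59 in the PF libraries. It was the highest of the 3 T3 libraries in 69.6% of the rising regions and in 66.7% of the interior regions. Without it the rule found 610 regions, of which 542 were among the 802. Scores as deposited were also slightly higher in T3, by a median of 0.10 over all regions and 0.13 over interior regions. When all libraries were given equal mean and SD (called scaled here) these medians became 0.02 and 0.01, and the rule found 310 regions (2.11% of the interior regions on that scale), 307 of which were among the 802. Those 307 are 38.3% of the 802 and 99% of the 310. On that scale all 802 still had a difference above 0, the lowest being 0.34, and their median was 0.47.

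The rising regions began deep below 0 in PF and ended at a wide range of levels in T3. The mean PF score had a median of −2.10 (quartiles −2.45 and −1.65) and ran from −3.17 to −0.70. The mean T3 score had a median of −1.498 (quartiles −1.86 and −1.01) and ran from −2.60 to −0.06. The median over the rising regions was −2.08, −2.13 and −2.09 in PF libraries 8, 9 and 10, and −1.38, −1.56 and −1.53 in T3 libraries 18, 19 and 20. Over all interior regions the same medians were −1.96, −1.997 and −1.98 in PF and −1.75, −1.87 and −1.87 in T3. In PF the rising regions were thus, as a group, a little lower than the interior regions, and in T3 a little higher. The rule used these same scores and favours low PF and high T3 values, so nothing is read from this contrast.

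The differences were mostly small steps just over the threshold. The median difference was 0.58, with 454 regions between 0.5 and 0.6, 240 between 0.6 and 0.75, 92 between 0.75 and 1 and 16 above 1. The standard error of the difference (limma) had a median of 0.10 in the rising and in the interior regions. For background, 33.9% of all regions were called different between T3 and PF at an adjusted p under 0.05 (limma, Benjamini-Hochberg over all regions), 23% of all regions and 25.2% of interior regions were called higher in T3, and the T3 and PF libraries did not overlap, T3 being higher, in 36.9% of interior regions. All 802 rising regions were called higher, which follows from how they were chosen, and nothing is read from it. In the authors' deposited table the adjusted p-value was under 0.05 for 113 of the 802, and 1.91% of the regions with a value were under it and higher in T3.

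**Figure D1:**
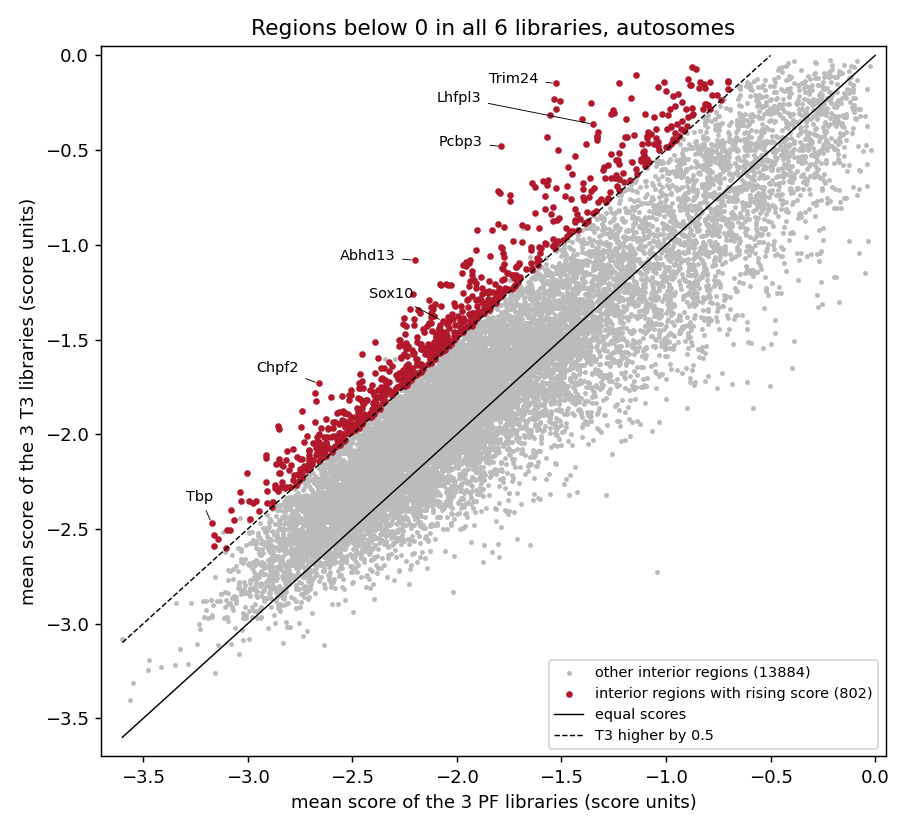
Mean score of the 3 T3 libraries (vertical) against mean score of the 3 PF libraries (horizontal), both in score units, for the 14686 autosomal regions below 0 in all 6 libraries. Red points are the 802 rising regions and gray points the other interior regions. The solid line marks equal scores and the dashed line T3 higher by 0.5. The red points run the length of the dashed line, from Tbp at a PF mean of −3.17 to regions near a PF mean of −0.70, with Trim24 farthest above it.

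A few regions came close to 0 in T3. The mean T3 score was above −0.5 in 93 of the 802 regions (11.6%), and above −1 in 199, whereas no mean PF score was above −0.5 and 49 were above −1. That no PF mean was above −0.5 follows from the rule, so nothing is read from this contrast. In 61 regions all 3 T3 libraries were above −0.5, beside 439 of the 14686 interior regions. The share of interior regions that met the rule was 8.02% at a mean PF score from −4 to −2.5, 5.8% from −2.5 to −2, 4.84% from −2 to −1.5, 5.88% from −1.5 to −1 and 3.74% from −1 to −0.5. On the scaled scores those shares were 2.39%, 1.68%, 1.98%, 3.59% and 2.55%, so the lowest class had the highest share only on the scores as deposited. No region from −0.5 to 0 could meet the rule. The rule also limited the class from −1 to −0.5, where the score had to rise by over 0.5 and stay below 0.

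Trim24 (chr6:37860811-37970445) stood first. It encodes a nuclear receptor coregulator with a bromodomain that reads histone marks. Its scores were −1.52, −1.49 and −1.58 in PF libraries 8, 9 and 10 and −0.05, −0.23 and −0.16 in T3 libraries 18, 19 and 20. The groups were far apart, with a difference of 1.38 ± 0.08 (SE) and with library 18 nearest to 0. It was the first of 4 rising regions of a locus on chromosome 6. Svopl, a transporter-like gene, came next at −1.27, −1.17 and −1.25 in PF and −0.01, −0.24 and −0.19 in T3, a difference of 1.08. Atp6v0a4, a subunit of the proton pump V-ATPase, had a difference of 0.74 and the membrane protein gene Tmem213 of 0.62. On this side of Trim24 the difference thus became smaller along the run of 274 kb. The Atp6v0a4 region overlaps that of Svopl and contains that of Tmem213, so their values are not separate. The nearest regions on both sides of Trim24 that do not overlap it had a mean difference of 1.11.

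Other large differences lay at genes of the extracellular matrix. Fbn2 (chr18:58006623-58219926), which encodes the microfibril protein fibrillin-2, scored −1.51, −1.49 and −1.58 in PF and −0.21, −0.31 and −0.32 in T3. Lama4 (chr10:38955515-39112188), a laminin chain of basement membranes, scored −1.20, −1.09 and −1.15 in PF and −0.07, −0.17 and −0.06 in T3. The lowest T3 library lay above the highest PF library by 1.17 for Fbn2 and by 0.91 for Lama4. Col6a2 and Col6a1, the neighbouring genes of collagen VI chains, differed by 0.67 and 0.65, and Col18a1, the gene of a basement membrane collagen, by 0.52. These 5 were the rising regions among 32 interior extracellular matrix genes (15.6%), beside 5.46% of all interior regions. After scaling 4 of them met the rule, and 4 without T3 library 18. The 5 lay in 4 loci. Col6a2 and Col6a1 shared a locus with Pcbp3 (chr10:76593756-76971947), and Col18a1 lay in the next locus of that chromosome (chr10:77050179-77271586). Those collagen genes thus came from neighbouring loci and are not separate cases. Of the 32, 10 were called higher and 5 lower in T3 (limma), beside 25.2% higher and 8.25% lower over all interior regions. Their median difference was 0.17 as deposited and 0.04 scaled, near the 0.13 and 0.01 of interior regions.

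Cell division genes were found among the largest differences and in 2 of the gene lists. Ect2 (chr3:27095222-27163854), an exchange factor that positions the cleavage furrow, scored −1.32, −1.45 and −1.44 in PF and −0.22, −0.44 and −0.36 in T3. Cep55 (chr19:38045025-38076425), which acts at the midbody when daughter cells separate, scored −1.86, −1.98 and −1.54 in PF and −0.58, −0.83 and −0.78 in T3. That the groups did not overlap in these genes follows from the rule. PF library 10 lay well above the other PF libraries for Cep55. Among kinetochore and mitosis genes 7 of 35 interior regions were rising (20%), in 7 different loci. They were Birc5 (0.79), a subunit of the chromosomal passenger complex, the spindle motor Kif11 (0.70), the kinetochore genes Dsn1 (0.55), Pmf1 (0.51) and Ndc80 (0.50), the centromere gene Cenpm (0.51) and the passenger complex gene Cdca8 (0.51). Most of these lay just over the threshold, and the count was 2 after scaling and 3 without T3 library 18. Of the 35, 18 were called higher and 1 lower (limma), against the same shares over all interior regions. Their median difference was 0.32 as deposited and 0.21 scaled, beside 0.13 and 0.01 over interior regions.

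DNA replication and E2F target genes had 7 rising regions among 55 (12.7%), beside 5.46% of all interior regions, with 4 after scaling and 9 without T3 library 18. Rpa3, a subunit of the single-strand DNA binding complex, scored −1.52, −1.56 and −0.90 in PF and −0.41, −0.36 and −0.52 in T3. PF library 10 was well above the other PF libraries there. The origin recognition genes Orc4 and Orc2 differed by 0.69 and 0.61, the cyclin gene Ccne1 by 0.61, the polymerase alpha subunit gene Pola2 by 0.56, the replicative helicase factor gene Gins2 by 0.54 and the ribonucleotide reductase gene Rrm1 by 0.53. Of the 55 genes, 23 were called higher and 2 lower (limma), beside 25.2% higher and 8.25% lower over all interior regions. Their median difference was 0.28 as deposited and 0.12 scaled, beside 0.13 and 0.01 over interior regions.

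Oligodendrocyte lineage genes gave 4 rising regions, Lhfpl3, Sox10, Myt1 and Lims2. Lhfpl3 (chr5:22736193-23277597), a long gene known as a marker of OPCs, scored −1.36, −1.35 and −1.33 in PF and −0.32, −0.38 and −0.39 in T3, with little spread within either group. Its difference was 0.98 ± 0.07 (SE). Sox10 (chr15:79152913-79174506), a transcription factor kept through the whole lineage, scored −1.89, −2.19 and −2.13 in PF and −1.39, −1.34 and −1.47 in T3, a difference of 0.67. Sox10 stayed well below 0 in both conditions. Myt1, a zinc finger factor of OPCs, and Lims2, an adhesion adaptor, were just over the threshold at 0.51 each. OPC genes thus had 2 rising regions of 21 (9.52%), and lineage transcription factors 2 of 27 (7.41%), beside 5.46% of all interior regions. Each count was 1 after scaling and 1 without T3 library 18. Of the 21 OPC genes 9 were called higher and 3 lower (limma), and of the 27 transcription factors 6 and 0. The shares over all interior regions were 25.2% and 8.25%. Their median differences were 0.23 and 0.07 (0.09 and −0.08 scaled), beside 0.13 and 0.01 over interior regions. The transcription factors as a list thus lay below the interior median.

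The OPC proteoglycan gene Cspg4 (0.41), the myelin regulator Myrf (0.33) and the PDGF receptor Pdgfra (0.26) had lower differences and are no rising regions. Cspg4 scored −2.27, −2.28 and −2.31 in PF and −1.72, −1.94 and −1.98 in T3. Its groups did not overlap, as in 36.9% of interior regions with T3 higher, and only the size of the step kept it out. None of 26 myelin and oligodendrocyte genes in the interior was rising, and their median difference was 0.08 as deposited and −0.05 scaled. There was also no rising region among 14 thyroid hormone response genes, 51 Wnt genes and 10 endothelial and mural genes. Beside the 5.46% of all interior regions, a count of 0 in lists as short as 10 or 14 regions is not read. In these 3 lists 5, 6 and 5 regions were called higher and 1, 4 and 1 lower (limma). Their median differences were 0.17, 0.07 and 0.29 (0.02, −0.08 and 0.16 scaled), beside 0.13 and 0.01 over interior regions.

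Repressors and chromatin genes included Trim24 and 4 more of 28 interior regions (17.9%). These were Trim33 (0.60), a relative of Trim24 that acts on SMAD signalling, Uhrf1 (0.58), which guides DNA methylation to new strands, the histone H3.3 chaperone Daxx (0.53) and the maintenance methyltransferase Dnmt1 (0.51). After scaling 2 of the 5 met the rule, and without T3 library 18 the count was 4. Of the 28 genes, 11 were called higher and 0 lower (limma), beside the 25.2% and 8.25% of interior regions, and their median difference was 0.24 as deposited and 0.12 scaled. Genes of the nuclear lamina and envelope gave 3 of 25 (12%), the chromatin bridging factor Banf1 (0.54), the nucleoporin Nup155 (0.52) and the lamina protein Tmpo (0.52). None of these 3 met the rule after scaling, and the list count was 1 without T3 library 18. Over all interior regions 5.46% were rising. Of the 25 lamina and envelope genes, 7 were called higher and 2 lower (limma). Their median difference was 0.07 as deposited and −0.06 scaled, below the 0.13 and 0.01 of interior regions.

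In the Notch pathway 3 of 29 interior genes were rising (10.3%), with 1 after scaling and 2 without T3 library 18. The ligand Jag1 (chr2:137079451-137126520) scored −1.16, −1.01 and −1.13 in PF and −0.10, −0.47 and −0.35 in T3, a difference of 0.79. The pathway's feedback inhibitor Nrarp differed by 0.61 and the receptor-modifying glycosyltransferase Mfng by 0.55. In other signalling groups the BMP antagonist Chrd differed by 0.76 and was the only rising region of 33 BMP and TGF-beta genes, and the small GTPase gene Nras (0.66) was the only one of 33 PDGF and FGF genes.

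Hox genes gave 6 rising regions of 39 (15.4%), beside 5.46% of all interior regions, with 3 after scaling and 3 without T3 library 18. Of the 39, 22 were called higher and 1 lower (limma), beside 25.2% higher and 8.25% lower over all interior regions. Their median difference was 0.31 as deposited and 0.20 scaled, beside 0.13 and 0.01 over interior regions. Hox genes pattern the body axis, and their order in a cluster follows the order of their domains in the embryo. Hoxd1 (chr2:74752980-74767142) scored −1.98, −1.73 and −1.69 in PF and −0.61, −0.84 and −0.70 in T3, a difference of 1.09. The antisense gene Haglr, whose region overlaps it, differed by 0.98, and their reads cannot be told apart. The HoxD cluster was followed gene by gene, a choice made after its values were seen. At the other end of the cluster Hoxd13 had a difference of −0.41 and Hoxd12 of −0.04. From there the difference was 0.30 at Hoxd11, 0.61 at Hoxd10, 0.57 at Hoxd9, 0.40 at Hoxd8, 0.37 at Hoxd3 and 0.13 at Hoxd4. The cluster thus had its high values at Hoxd9 and Hoxd10 and at the Hoxd1 end, and its low values between them and at Hoxd13. The other rising Hox regions were Hoxb4 (0.65), Hoxb1 (0.56) and Hoxa5 (0.53).

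**Figure D2:**
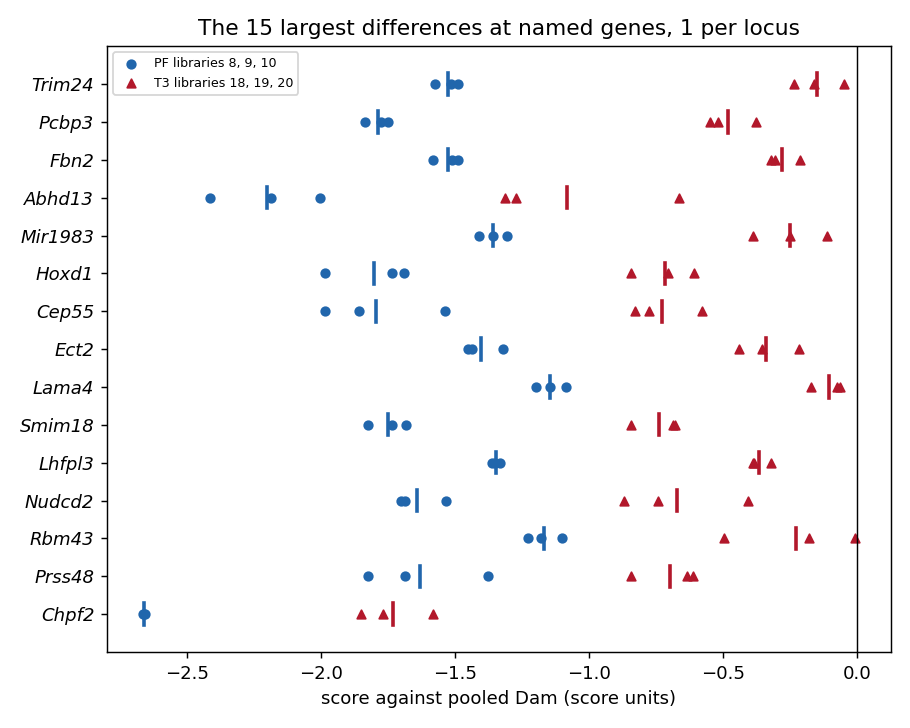
Scores against pooled Dam (horizontal axis, score units) of the 15 rising regions with the largest difference at named genes, 1 region per locus. tRNA regions, which have no gene name of their own, are left out. Blue circles are PF libraries 8, 9 and 10, red triangles T3 libraries 18, 19 and 20, and short vertical lines the mean of 3. All triangles lie right of all circles in each gene because the rule asked for it. Chpf2 keeps T3 scores from −1.85 to −1.58, whereas Rbm43 reaches −0.01 in library 18.

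Further large single differences had no shared role. The RNA-binding protein gene Pcbp3 (chr10:76759854-76971947) scored −1.75, −1.78 and −1.84 in PF and −0.38, −0.55 and −0.52 in T3, a difference of 1.31. Abhd13 (chr8:9967717-9994154) scored −2.003, −2.19 and −2.42 in PF and −0.66, −1.31 and −1.27 in T3. Its difference was 1.12, and T3 library 18 stood well above the other T3 libraries there. Chpf2 (chr5:24576750-24595353), a chondroitin sulfate synthesis gene, went from −2.66, −2.67 and −2.66 in PF to −1.58, −1.85 and −1.77 in T3. It had a difference of 0.93 yet stayed deep in the interior range. Smim18 differed by 1.01, Nudcd2 by 0.97, Rbm43 by 0.94 and the protease gene Prss48 by 0.93.

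Genes that every cell uses were found among the rising regions as well. The lowest PF scores of all belonged to Tbp (chr17:15489888-15519427), the TATA-binding protein, at −3.20, −3.17 and −3.14 in PF and −2.41, −2.60 and −2.40 in T3, to a leucine tRNA region (chr13:23451432-23463514) with a PF mean of −3.16 and to the nuclear matrix gene Matr3, also with a PF mean of −3.16. The highest PF means, all −0.70, belonged to Slc26a5, Olfr1412 and Ceacam10, genes of the inner ear, of smell and of an adhesion family. Cytosolic ribosomal protein genes had 8 rising regions of 81 (9.88%), among them Rplp0 (0.68), Rplp1 (0.68) and Rps18 (0.63), with 3 after scaling and 6 without T3 library 18. Splicing factors had 4 of 60 (Sf3a2 at 0.69), sterol synthesis genes 2 of 21 (Lss at 0.65 and Pmvk at 0.62) and Zfp zinc finger genes 11 of 261 (4.21%). Solute carriers had 10 of 259 (3.86%), led by the sodium, potassium and chloride cotransporter Slc12a2 (0.69), small nucleolar RNA genes 4 of 84, and actin and adhesion regulators 1 of 48, which was the integrin linker Tln1 (0.55). After scaling the counts were 1 for splicing factors, 1 for sterol synthesis, 3 for Zfp genes, 3 for solute carriers, 1 for small nucleolar RNA genes and 0 for actin and adhesion regulators. Without T3 library 18 they were 2, 2, 8, 7, 5 and 0.

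Markers of other brain cell types were not frequent. The astrocyte gene S100b, also made in the oligodendrocyte lineage, differed by 0.74 and was the only rising region of 16 astrocyte genes. Tubb3 (0.67) was the only one of 17 neuronal genes, and the myeloid factor Spi1 (0.59) the only one of 14 microglia genes. The shares of these lists, 6.25%, 5.88% and 7.14%, are near the 5.46% of all interior regions. Of the 16 astrocyte genes 2 were called higher and 3 lower (limma). For the neuronal genes the counts were 8 and 0, and for the microglia genes 5 and 1. The median differences of the 3 lists were 0.02, 0.28 and 0.19 (−0.11, 0.15 and 0.09 scaled), beside 0.13 and 0.01 over interior regions.

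**Figure D3:**
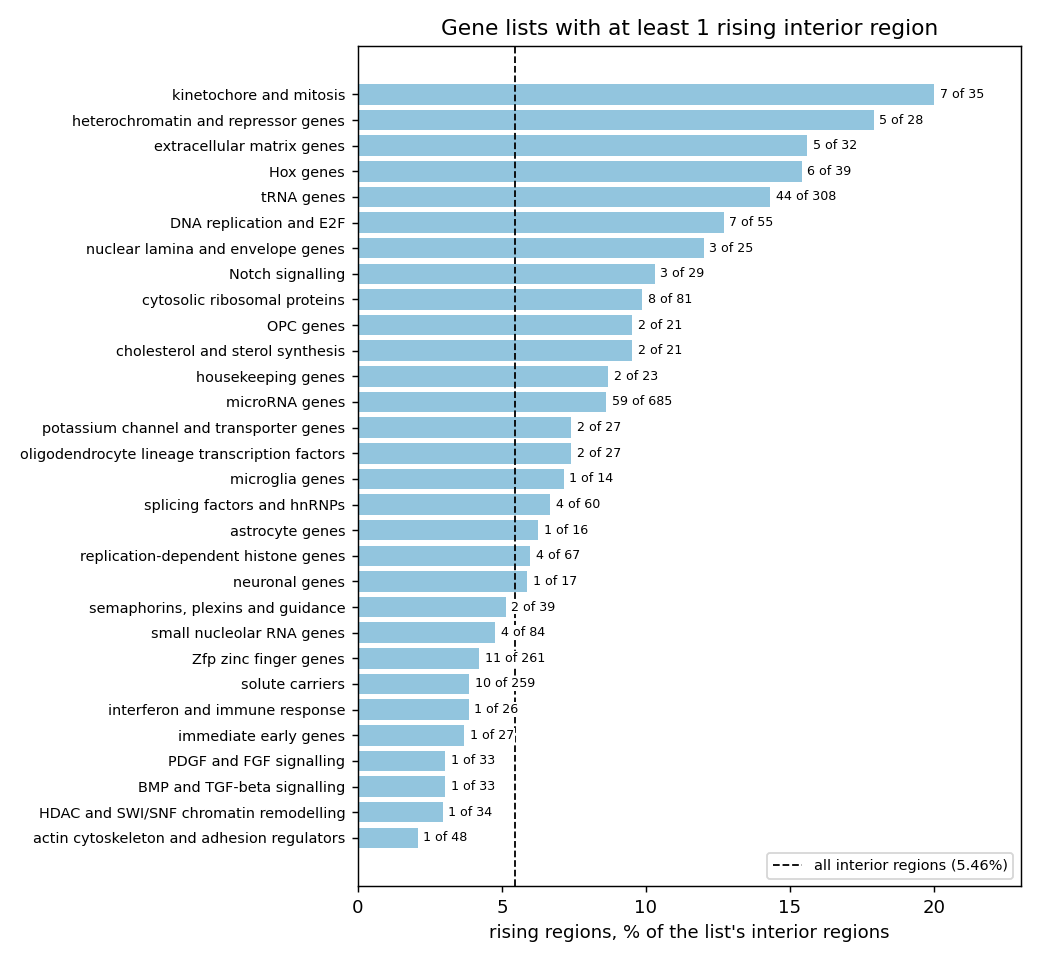
Rising regions as a percentage of the interior regions of each gene list (horizontal axis), for the 30 lists with at least 1. The figures at the bars give the rising and interior regions, and the dashed line is the 5.46% of all interior regions. Kinetochore and mitosis genes reach 20% with 7 of 35, and most lists rest on fewer than 10 rising regions.

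tRNA genes formed the largest group by position. Transfer RNAs carry amino acids to the ribosome and are transcribed by RNA polymerase III from many near-identical gene copies, many of them in a cluster on chromosome 13 beside the main histone cluster. Of 308 interior tRNA regions 44 were rising (14.3%), in 14 loci. On chromosome 13 the count was 37 of 94 (39.4%), and on all other chromosomes 7 of 214 (3.27%), so the excess lay on chromosome 13. After scaling the counts were 26 and 5, and without T3 library 18 they were 36 and 9. The median difference of the interior tRNA regions was 0.41 on chromosome 13 and 0.13 elsewhere, and 0.26 and 0.00 scaled. These regions are about 12073 bp wide and overlap one another, and copies with like sequence can exchange reads, so values of single tRNA regions are uncertain and the 37 are far from independent.

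The locus with the most rising regions lay in this stretch, at chr13:21853320-21973860, with 19 rising regions. It held 17 tRNA regions, the microRNA gene Mir1983 and the zinc finger gene Zfp184. Its median score was −1.59 in PF and −0.68 in T3, with differences from 0.53 to 1.30. A lysine tRNA region (chr13:21897940-21910012) scored −1.49, −1.69 and −1.42 in PF and −0.14, −0.31 and −0.24 in T3. A methionine tRNA region beside it (chr13:21897111-21909182) scored −1.49, −1.65 and −1.39 in PF and −0.18, −0.32 and −0.22 in T3. Both rest on nearly the same DNA, as does Mir1983 (chr13:21894918-21907049), which scored −1.30, −1.41 and −1.36 in PF and −0.11, −0.39 and −0.25 in T3. Zfp184 (chr13:21935094-21962485), at the far side of the locus, differed by 0.84. Its region contains that of a rising serine tRNA gene (chr13:21935094-21947175).

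The locus with the next highest number, chr13:21169931-21261839, held 10 rising regions, 9 of them tRNA genes and the other Trim27, a RING finger gene, with a median difference of 0.59. A further 4 valine and alanine tRNA regions at chr13:23288781-23309701 had a median difference of 0.84.

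As a group the histone genes of the stretch had smaller differences than the tRNA genes, but values also varied with position. The whole stretch, chr13:21122777-23698545 (2.58 Mb), held 213 regions, of which 104 were tRNA genes, 41 histone genes, 47 vomeronasal or olfactory receptors and 21 other genes. The tRNA regions had a median difference of 0.43 and the histone regions of 0.08 (−0.06 scaled). Of the 41 histone regions, all interior, 4 were rising, and these were Hist1h3e (0.68), Hist1h2bg (0.68), Hist1h2ad (0.55) and Hist1h2bc (0.54). Some tRNA regions near histone genes were low too. By distance from the first region they were TRNA_Sup at 663 kb (−0.35), TRNA_Ser at 898 kb (−0.03) and TRNA_Arg at 2402 kb (0.09), whereas TRNA_Thr at 723 kb had 0.45. Near the peak, Mir1983 (1.11) and Zfp184 (0.84) were also high. Their regions overlap those of rising tRNA genes, so these values are not separate from the tRNA values. Gene type was not tested apart from position. The receptors had a median PF score of 1.74, and 1 of them was interior and none rising. The largest difference in the stretch, 1.46, belonged to an aspartate tRNA region (TRNA_Asp) in the middle of the peak that is no rising region because it did not stay below 0 in all 6 libraries.

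**Figure D4:**
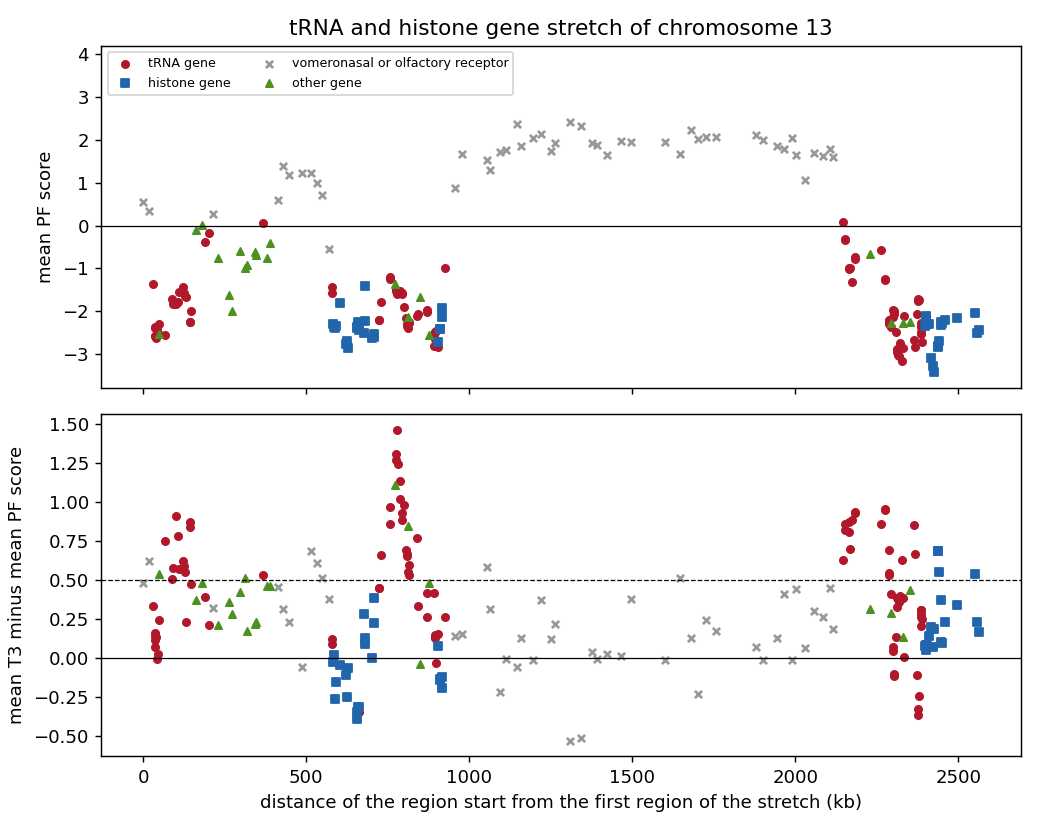
Mean PF score (top) and mean T3 minus mean PF score (bottom), in score units, along the tRNA and histone stretch of chromosome 13, by distance in kb of each region's start from the first region. Red circles are tRNA genes, blue squares histone genes, gray crosses receptors and green triangles other genes. The dashed line marks the difference of 0.5. The tRNA regions and Mir1983 form a peak near 780 kb that reaches 1.46, while most histone genes and some tRNA regions lie nearer to 0.

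The rising regions were spread over the genome in short runs. They fell into 571 loci, a locus being rising regions that overlap or follow each other with no other region between them. There were 420 loci with 1 rising region, 105 with 2 and 46 with 3 or more, and the last held 172 regions. Of the 802 regions, 82.5% overlapped another region of the table, beside 74.2% of interior regions. The locus at chr17:33930723-33968488 held Wdr46, Pfdn6, Vps52, B3galt4 and Rps18, with differences from 0.63 to 0.73. These are housekeeping genes packed into 37.8 kb, and their regions overlap. At chr2:51922449-52124381 Rbm43, Nmi, Tnfaip6 and Rif1 differed by 0.94, 0.87, 0.88 and 0.79. Rif1, a factor of replication timing, scored −0.81, −0.86 and −0.90 in PF and −0.13, −0.06 and −0.02 in T3. At chr8:9967717-10636742 Abhd13, Lig4, Tnfsf13b and Myo16 differed by 1.12, 0.95, 0.71 and 0.56.

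In windows of 1 Mb, 361 of 1586 windows with an interior region had a rising region, and 34 windows had 5 or more, which together held 266. The genes named from such windows were chosen after their values were seen. The window chr10:76000001-77000000 had the highest share among those with 5 or more, 8 of its 12 interior regions (66.7%). They were Prmt2 (0.61), S100b, Pcnt (0.53), Mcm3ap (0.52), Lss, Col6a2, Col6a1 and Pcbp3, that is an arginine methyltransferase, a centrosome scaffold and an export factor next to genes named above. The other 4, Dip2a (0.49), Ybey (0.48), Spatc1l (0.46) and Zfp280b (0.41), lay under the threshold but also above the interior median of 0.13. Of these 12 interior regions 6 met the rule after scaling and 7 without T3 library 18. Ftcd (0.77), a gene of histidine breakdown in the same window, is not interior because T3 library 18 scored above 0 there, but it met the rule under both alternatives. In chr19:5000001-6000000 the count was 15 of 53, and it was 2 after scaling and 7 without T3 library 18.

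Chromosomes differed in their share. It was 10.3% on chromosome 10 (67 of 648, in 49 loci), 10% on chromosome 13, 8.97% on chromosome 19, 7.65% on chromosome 17 and 7.14% on chromosome 3, and it was lowest on chromosome 11 (3.32%), chromosome 6 (3.27%) and chromosome 14 (2.76%). Without tRNA regions chromosome 13 came to 4.09%, whereas chromosome 10 came to 10.4%. After scaling chromosome 13 had 6.76%, chromosome 10 5.69% and chromosome 19 2.93%.

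The neighbours of rising regions, which the rule did not use unless they were rising themselves, mostly differed in the same direction. The mean difference of the nearest regions that do not overlap had a median of 0.29 beside rising regions, 0.12 beside interior regions and −0.29 beside the 360 interior regions that met the mirror rule (falling regions). It was above 0 for 95.3%, 70% and 11.1% of them. For 611 rising regions neither such neighbour was rising, and beside these the median was 0.24, with 93.8% above 0. Nearby regions share chromatin and libraries, so these shares are a description.

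Rising regions were narrower and lay in denser surroundings than falling ones. Their median width was 19.6 kb, beside 27.2 kb for interior and 47.5 kb for falling regions, and they had a median of 23, 18 and 8 regions within 500 kb. The distance to the nearest region above 0 in all 6 libraries had a median of 965 kb for rising, 1049 kb for interior and 694 kb for falling regions, and 10.3%, 10.4% and 14.2% lay within 100 kb of such a region. Rising regions were thus about as far from lamina regions as interior regions in general. By gene type 84.5% were protein-coding, beside 90.3% of interior regions, and 5.49% were tRNA genes beside 2.1%.

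The share of rising regions fell with width. It was 9.67% under 14 kb, 7.63% from 14 to 20 kb, 4.81% from 20 to 50 kb, 2.79% from 50 to 100 kb and 2.38% over 100 kb. The share of falling regions was 2.43%, 1.37%, 1.68%, 3.1% and 7.27% in the same classes. The error moved with width too. The median standard error fell from 0.11 in the narrowest to 0.08 in the widest class, and the median SD between libraries of a condition from 0.17 to 0.07. The part of this error in the share of rising regions was not tested.

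**Figure D5:**
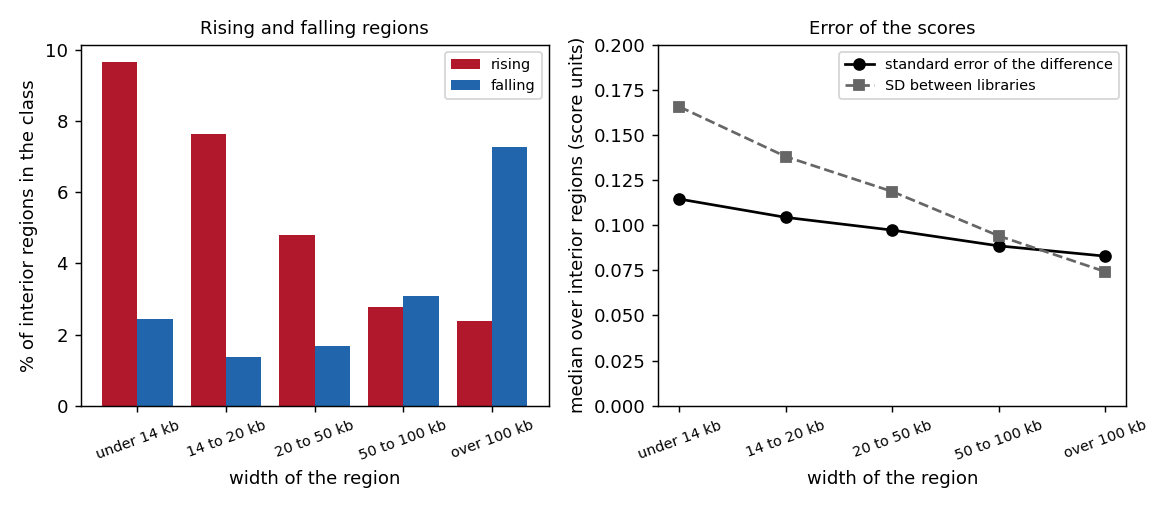
Left, percentage of interior regions that are rising (red bars) or falling (blue bars) in 5 classes of region width. Right, median standard error of the difference (black circles) and median SD between libraries of a condition (gray squares), in score units, in the same classes. Rising regions go from 9.67% in the narrowest to 2.38% in the widest class, while the falling ones reach 7.27% in the widest.

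Because the 6 libraries chose the regions, the rule was also run on 5 libraries and the score of the sixth was read against the mean of the other condition. With a PF library left out the rule chose 957, 835 and 915 regions (PF 8, 9 and 10), and with a T3 library left out 610, 1054 and 1036 (T3 18, 19 and 20). The median difference in the library left out was 0.51, 0.57 and 0.53 for PF and 0.68, 0.48 and 0.48 for T3, beside 0.09 to 0.22 over interior regions. It was above 0 in 99.1% to 99.7% of the chosen regions. The libraries of the other condition had taken part in the choice, so this difference is not free of it. The difference was over 0.5 in 46.2% to 82.3% of the chosen regions, beside 5.06% to 14% of all interior regions. With 1 PF and 1 T3 library left out together, which gives 9 pairs, the difference between those libraries had a median from 0.40 to 0.64, beside 0.07 to 0.24 over interior regions. It was above 0 in 94.1% to 98.1% of the chosen regions. In 33.8% to 70% of them it was over 0.5, beside 5.91% to 18.2% of interior regions. The shares above 0 have no interior share beside them and are a description. The pairs with T3 library 18 gave 0.60 to 0.64 and the other pairs 0.40 to 0.46, so the size was larger with that library, while the median was above 0 in all 9 pairs. A library left out still shares the pooled Dam denominator of its condition, so this does not test the Dam libraries.

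The threshold of 0.5 has no gap beside it. The last regions inside it were Gsr (0.5001), Map1lc3b (0.5004) and Il12rb1 (0.5006), and regions just outside it that met the rest of the rule were Dhx38 (0.4997) and Fam132b (0.4995). Gsr scored −1.41, −1.43 and −1.42 in PF and −0.95, −0.84 and −0.98 in T3, and Dhx38 scored −1.70, −1.65 and −1.36 in PF and −0.85, −1.27 and −1.10 in T3. That the PF and T3 libraries did not overlap in either gene follows from how these regions were picked. The clause that the libraries must not overlap removed 22 of 824 regions.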

How the data were processed

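The authors deposited 1 table of 21534 gene regions (mm10) with a score for each of the 6 Dam-LMNB1 libraries, which per the file headers sets that library against pooled Dam of the same condition. The log base is not stated, so differences are given in score units. Per the submitters' processing notes, cutadapt 1.9.1 and BWA 0.7.17 were used. The step from reads to scores is not stated in these sources. The deposited table also holds an adjusted p-value per region, used only where it is named.

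limma 3.58.1 (R 4.3.3) was fitted to the 6 libraries over all regions with 1 mean per condition and a variance trend, two-sided, with Benjamini-Hochberg adjustment at 0.05. It was tested on simulated data. Its p-values rest on the spread among the 6 libraries, which may be only technical, and not on that among Dam libraries. Scaling gave all libraries equal mean and SD. Starts are printed counted from 1. The rule and the 34 gene lists were chosen with earlier results of these data known, and the pattern that finds tRNA genes was corrected after the table's spelling was seen. Genes were named if they were among the 15 largest differences (1 per locus, tRNA regions left out for want of a gene name), the 4 largest of a list, the 4 loci with most rising regions, the 3 on each side of the threshold or the 3 lowest and highest in PF, or were Trim24, Sox10, Cspg4, Myrf or Pdgfra. Others (Pmf1, Ndc80, Cdca8, Pola2, Gins2, Rrm1, Dnmt1, Col18a1, Hoxb1, Hoxa5 and the genes of further loci and windows) were named after their values were seen. Not all genes that the rule allows are given in the text. Alternatives were quantile normalization, other thresholds and leaving out each library. Reference names and sequences came from RefSeq (GRCm38.p6).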

Additional observations from a re-analysis of the deposited data

How the results depend on the processing

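The number of rising regions, 802, depended on the scale and the threshold. It was 310 with all libraries at equal mean and SD (scaled), 343 after quantile normalization, 352 relative to the median difference of autosomal regions, 108 at a difference over 0.75 and 16 at a difference over 1. The number of loci, 571, was 230, 254, 270, 77 and 10 under the same settings. Leaving out each library in turn gave 610 to 1054 regions, 436 to 714 loci and a median difference of 0.54 to 0.62, with the lowest values without T3 library 18. The median difference, 0.58, was 0.47 scaled and 0.48 after quantile normalization. Over all regions limma called 7308 at an adjusted p under 0.05, and 4809 to 6581 without each library in turn, the lowest without PF library 9. The calls were 4963 higher and 2345 lower as deposited, and 3330 higher and 3261 lower scaled. Among 130 named regions no difference changed sign under the settings tried, and 42 moved by more than the SD between libraries on scaling. No paired analysis was possible because the PF and T3 libraries share no replicate number. Read depth is unknown, which leaves counting error without an interval.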

Other observations

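The rule covered autosomes only. On the X chromosome 14 of 387 regions below 0 in all 6 libraries met the rest of it (3.62%). Of these, 12 lay within chrX:100000001-104000000, which held 40 such regions, and 2 lay among the other 347. The window was chosen after its values were seen. It contains Xist, the RNA gene that silences an X chromosome, its antisense gene Tsix and the Xist regulator Rlim. Rlim scored −1.65, −1.63 and −1.91 in PF and −0.94, −1.06 and −1.06 in T3. Nap1l2 had the largest difference (0.76), followed by Rlim (0.71), the chemokine receptor gene Cxcr3 (0.69) and the amino acid transporter gene Slc7a3 (0.68), and Chic1 differed by 0.60. Xist scored −2.08, −2.13 and −2.31 in PF and −1.79, −1.43 and −1.71 in T3. Xist and Tsix overlap, so their values (0.53 and 0.52) are not separate. The median difference of the 40 regions was 0.30 as deposited and 0.20 scaled, beside 0.10 and 0.02 in the other 347, and it was above 0 in 35 of the 40 (28 scaled). Without T3 library 18 the window had 11 regions that met the rule, and scaled it had 5, with 0 in the rest of the chromosome. The sex of the animals is not given in the labels, and no explanation was tested.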
